A study of Mus musculus with 54 samples.

Results

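The 8 genes described here make sterols or gauge the sterol content of the cell. Hmgcs1, Idi1, Fdps and Fdft1 act on the way from acetyl-CoA to squalene, Sqle, Lss and Dhcr7 act between squalene and cholesterol, and Insig1 is a sterol sensor of the endoplasmic reticulum. They were taken by symbol from a list of genes that supply sterols, by a rule that sets no threshold on measured values. The list was chosen with earlier results of these data known. All 8 were found among the 53379 gene identifiers counted in each library.

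Bulk RNA-seq was done on mouse cerebellar tumours and on normal cerebellum collected 5 h after 1 Gy of radiation or a sham procedure. The tumours came from mice labelled SmoA1 homo, which carry an activated form of the Hedgehog signal transducer Smoothened, and from Ptc het mice, which lack a copy of the Hedgehog receptor gene Ptch1 and whose strain label reads C57BL/6. The normal cerebellum came from C57BL/6 mice, called BL6 here. The promoter behind the SmoA1 allele and the ages of the mice are not given in the labels. Each of the 6 groups held 3 libraries after the files of a sample number were added together. They were SmoA1 1 Gy (numbers 1, 2 and 3), SmoA1 sham (1, 2 and 4), Ptc 1 Gy (1, 2 and 3), Ptc sham (1, 2 and 3), BL6 1 Gy (2, 3 and 4) and BL6 sham (1, 2 and 3). All were made from total RNA with removal of ribosomal RNA. The titles call the Ptc libraries biological replicates, and give the same name to the 4 files within each SmoA1 or BL6 sample number, whose counts differed by less than sampling noise and were added as 1 library. They do not say which libraries came from separate mice, so p-values measure the spread between these libraries, which may be technical.

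Cells build cholesterol from acetyl-CoA through mevalonate, farnesyl diphosphate, squalene and lanosterol. When sterols in the endoplasmic reticulum run low, SCAP carries the transcription factor SREBP2 to the Golgi, where it is cut and freed to enter the nucleus and raise nearly every gene of the pathway together, Insig1 included. Insig1 protein holds SCAP back when sterols are plentiful. In the brain most cholesterol is made locally, much of it by oligodendrocytes for myelin, and in Hedgehog signalling cholesterol and oxysterols bind Smoothened while Ptch1 limits their access to it.

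In these libraries none of the 8 genes passed the test in any comparison. In SmoA1 tumours and BL6 cerebellum the 8 genes together summed to 400 to 451 and 406 to 482 CPM (counts scaled to the library's total in genes), with Sqle somewhat higher in SmoA1 sham tumours than in BL6 sham cerebellum and lower again in SmoA1 1 Gy tumours, neither past the threshold. In Ptc tumours the fitted fold change after 1 Gy was above 1 for all 8 genes, with Fdps at 1.02. It was above 1 for 7 of 8 without Ptc sham replicate 2, and for only 5 of 8 without Ptc 1 Gy replicate 1. It was largest for Hmgcs1, and for all 8 the highest of the 6 values was in that library.

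Promoters of 5 of the 8 genes (Hmgcs1, Idi1, Lss, Dhcr7 and Insig1) were found in a RefSeq promoter table of build GRCm38.p6, and those of Sqle, Fdps and Fdft1 are named only. Each promoter runs from 250 bases before to 50 bases after the annotated start. Those of Hmgcs1, Insig1 and Lss are shown because these genes had the largest, an intermediate and the smallest excess in Ptc 1 Gy replicate 1. Capitals mark matches, on either strand, to the sterol regulatory element letters TCACNCCAC, the CCAAT box, the GC box GGGCGG and the E box CACGTG, and no printed match overlaps another. All 3 genes lie on the plus strand, at chr13:119690101-119690400 for Hmgcs1, chr5:28071162-28071461 for Insig1 and chr10:76531355-76531654 for Lss.
Hmgcs1: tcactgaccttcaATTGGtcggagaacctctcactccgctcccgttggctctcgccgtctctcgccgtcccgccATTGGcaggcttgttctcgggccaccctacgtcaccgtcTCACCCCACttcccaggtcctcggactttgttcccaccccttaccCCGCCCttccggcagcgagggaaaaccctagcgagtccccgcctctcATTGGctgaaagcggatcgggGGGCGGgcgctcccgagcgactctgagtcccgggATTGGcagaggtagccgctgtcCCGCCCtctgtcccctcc
Insig1: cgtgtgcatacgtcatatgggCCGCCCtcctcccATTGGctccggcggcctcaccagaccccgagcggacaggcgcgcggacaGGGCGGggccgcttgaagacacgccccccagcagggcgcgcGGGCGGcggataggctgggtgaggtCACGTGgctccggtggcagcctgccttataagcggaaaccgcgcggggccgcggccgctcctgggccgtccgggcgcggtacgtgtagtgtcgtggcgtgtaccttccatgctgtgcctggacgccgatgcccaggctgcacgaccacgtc
Lss: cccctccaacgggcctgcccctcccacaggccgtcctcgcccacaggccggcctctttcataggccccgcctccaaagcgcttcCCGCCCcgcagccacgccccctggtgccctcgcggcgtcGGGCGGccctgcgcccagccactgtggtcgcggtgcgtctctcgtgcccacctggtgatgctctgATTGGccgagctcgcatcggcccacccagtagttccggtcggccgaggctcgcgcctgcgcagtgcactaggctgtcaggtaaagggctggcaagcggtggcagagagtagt

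The sterol regulatory element letters were present in 1.24% of all 32851 promoters in the table and, among the promoters of the 5 genes, in that of Hmgcs1 alone, as TCACCCCAC starting 137 bases before the start. CCAAT was present in 37.4% of all promoters, and the Hmgcs1 promoter held 4 matches against 1 each in those of Insig1 and Lss. The GC box was present in 35.7% of all promoters, with 3 matches in Hmgcs1, 3 in Insig1 and 2 in Lss. The E box was present in 7.15% of all promoters, and the Insig1 promoter held 1, starting 101 bases before the start. A match describes the letters of this window only.

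The libraries were of 2 kinds. The 12 SmoA1 and BL6 libraries held 540652 to 842997 counts in genes, with 70.4% to 75.0% of uniquely mapped reads outside exons and 45.8% to 76.1% of reads unmapped. The 6 Ptc libraries held 34124031 to 51330146 counts in genes, with 12.5% to 14.3% of uniquely mapped reads outside exons, so levels were compared within each kind of library and not between them. Mitochondrial genes held 0.00449% to 0.0135% of counts in genes in SmoA1 and BL6 libraries, against 1.41% to 3.02% in Ptc libraries. Mbp, an oligodendrocyte marker, averaged 9.66 ± 1.87 CPM per kb of exon in BL6 sham libraries (SD, n = 3). The protein-coding median of the 12 SmoA1 and BL6 libraries was 8.42 to 9.11 CPM per kb. Whether fold changes in these 12 libraries keep the size of the RNA change was not tested. As a check of the SmoA1 label, Smo averaged 81.1 ± 11.4 CPM in SmoA1 1 Gy and 87.8 ± 5.56 CPM in SmoA1 sham libraries, against 38.6 ± 3.54 CPM in BL6 1 Gy and 42.4 ± 0.107 CPM in BL6 sham libraries (SD, n = 3 each). Of the Ptc libraries, sham replicate 2 stood apart from its tumour label: its 6 markers of dividing cells summed to 189 CPM, against 1337 to 2377 CPM in the other 5 Ptc libraries, and its 6 Purkinje neuron markers summed to 7114 CPM, against 100 to 1824 CPM. None of the 65 cell type markers was at 0 in any library. In bulk tissue, fewer cells of a type and less RNA per cell cannot be told apart.

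**Figure D1:**
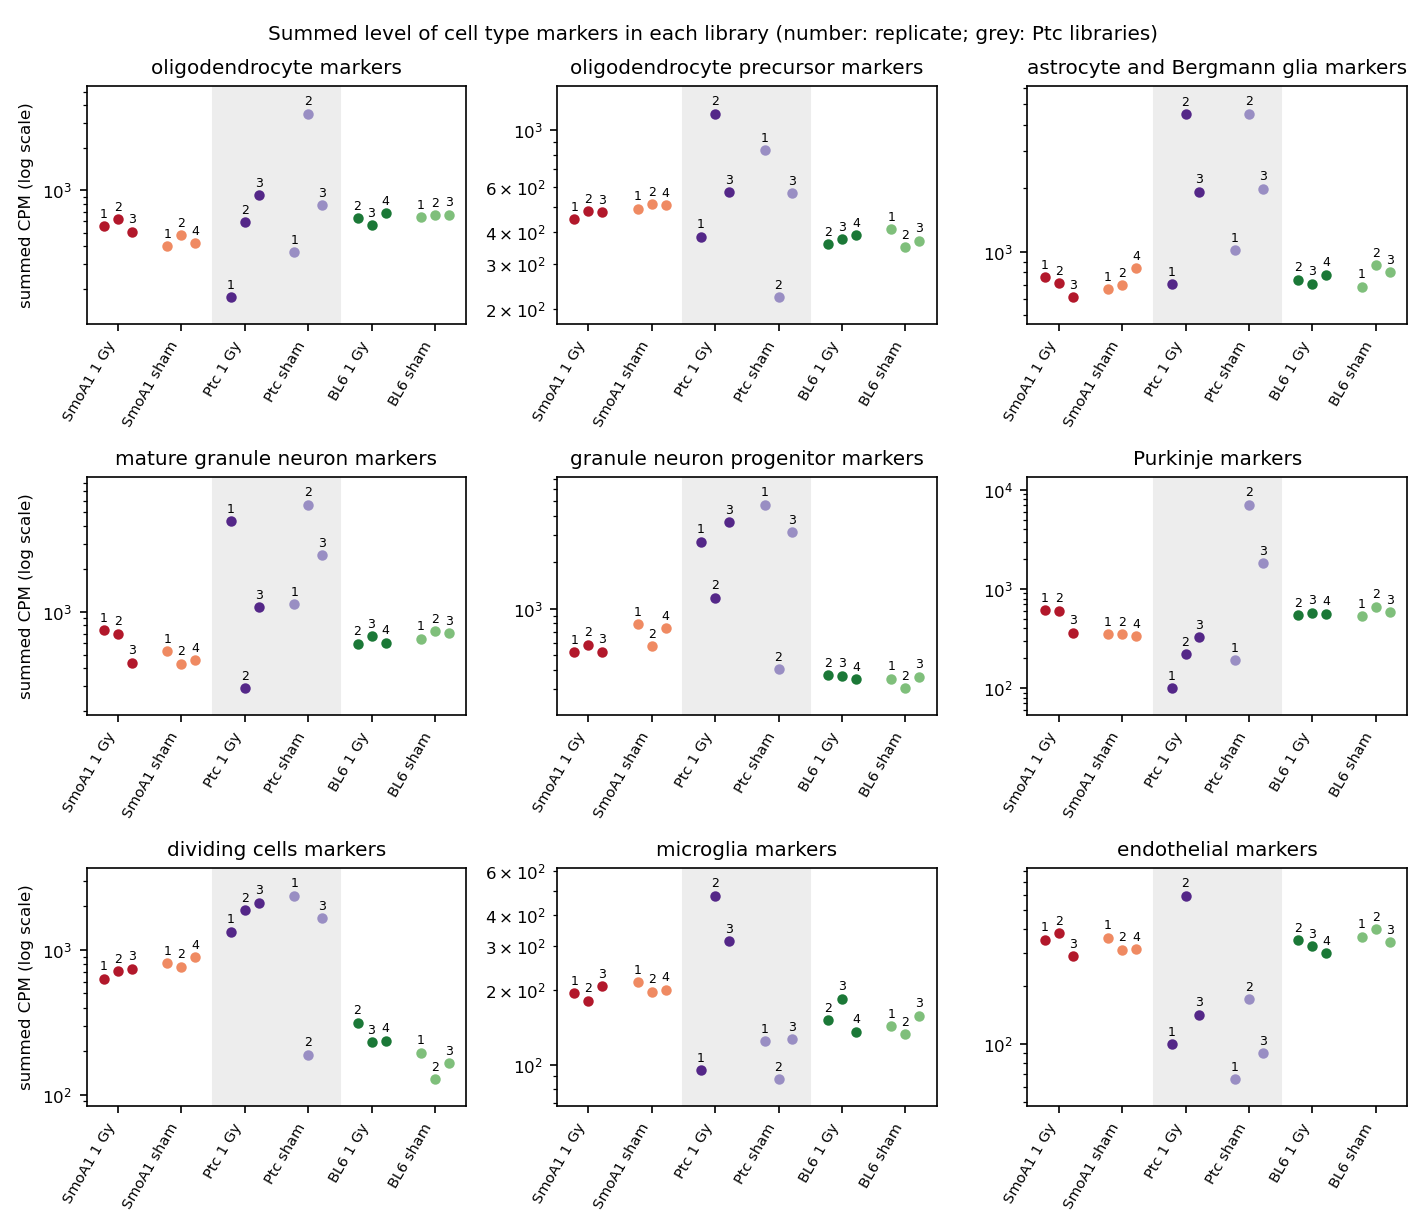
Summed CPM of 9 lists of cell type markers in each of the 18 libraries, on a log axis, with 1 point per library and its replicate number above it. The SmoA1 and BL6 libraries lay close together within each group, while the 6 Ptc libraries were spread widely, with Ptc sham replicate 2 lowest for dividing cells at 189 CPM and highest for Purkinje markers at 7114 CPM.

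The 8 genes were counted at modest depth in SmoA1 and BL6 libraries and deeply in Ptc libraries. In the 12 SmoA1 and BL6 libraries their counts ran from 3, for Idi1 in BL6 1 Gy replicate 3 (exact Poisson 95% interval 0.619 to 8.77 counts), to 85, for Lss in SmoA1 sham replicate 2. In the 6 Ptc libraries the counts ran from 33 for Fdps to 13805 for Hmgcs1. Poisson intervals cover counting error only.

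Per kb of merged exon, the median level over the 12 SmoA1 and BL6 libraries was 15.1 CPM per kb for Sqle, 14.4 for Hmgcs1, 12.9 for Insig1, 10.5 for Dhcr7, 9.89 for Fdft1, 9.14 for Lss, 5.09 for Fdps and 4.03 for Idi1. The ranges of every pair of neighbours in that order overlapped, as for Sqle at 11.9 to 19.4 and Hmgcs1 at 11.3 to 16.8 CPM per kb. Protein-coding genes had a median of 8.42 to 9.11 CPM per kb in these libraries, and olfactory and vomeronasal receptor genes, which cerebellum should lack, were at 0.131 to 0.221 CPM per kb, so all 8 genes stood well above that background.

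In the 6 Ptc libraries the order differed, with a median of 20.03 CPM per kb for Hmgcs1, 18.01 for Insig1, 12.6 for Fdft1, 10.7 for Sqle, 6.01 for Dhcr7, 3.63 for Lss, 3.47 for Idi1 and 0.290 for Fdps. Neighbouring ranges overlapped except for the last pair, since Fdps ran from 0.226 to 0.485 and Idi1 from 2.57 to 6.57 CPM per kb. Protein-coding genes had a median of 1.37 to 1.98 CPM per kb and receptor genes 0.00351 to 0.00476 CPM per kb in these libraries. Within a library kind the widest spread was that of Sqle in Ptc libraries, where the highest value was 4.84 times the lowest.

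The levels of some of these genes are uncertain because other genes share their sequence. Of the 50-base windows of the longest coding transcript, 86.4% were shared with another gene for Fdps (chromosome 3, 89093588 to 89101959, minus strand, GRCm38), among them the protein-coding Gm43738 and processed pseudogenes Gm3571 and Gm5873. The share was 30.7% for Fdft1, which shares sequence with Ctsb, 30.5% for Idi1, 13.6% for Hmgcs1, which overlaps the antisense gene Gm48342, 4.35% for Lss and 2.49% for Insig1. It was 0 for Sqle (chromosome 15, 59315077 to 59331192, plus strand) and for Dhcr7 (chromosome 7, 143823145 to 143848410, plus strand), so reads of this pair are the least ambiguous.

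**Figure D2:**
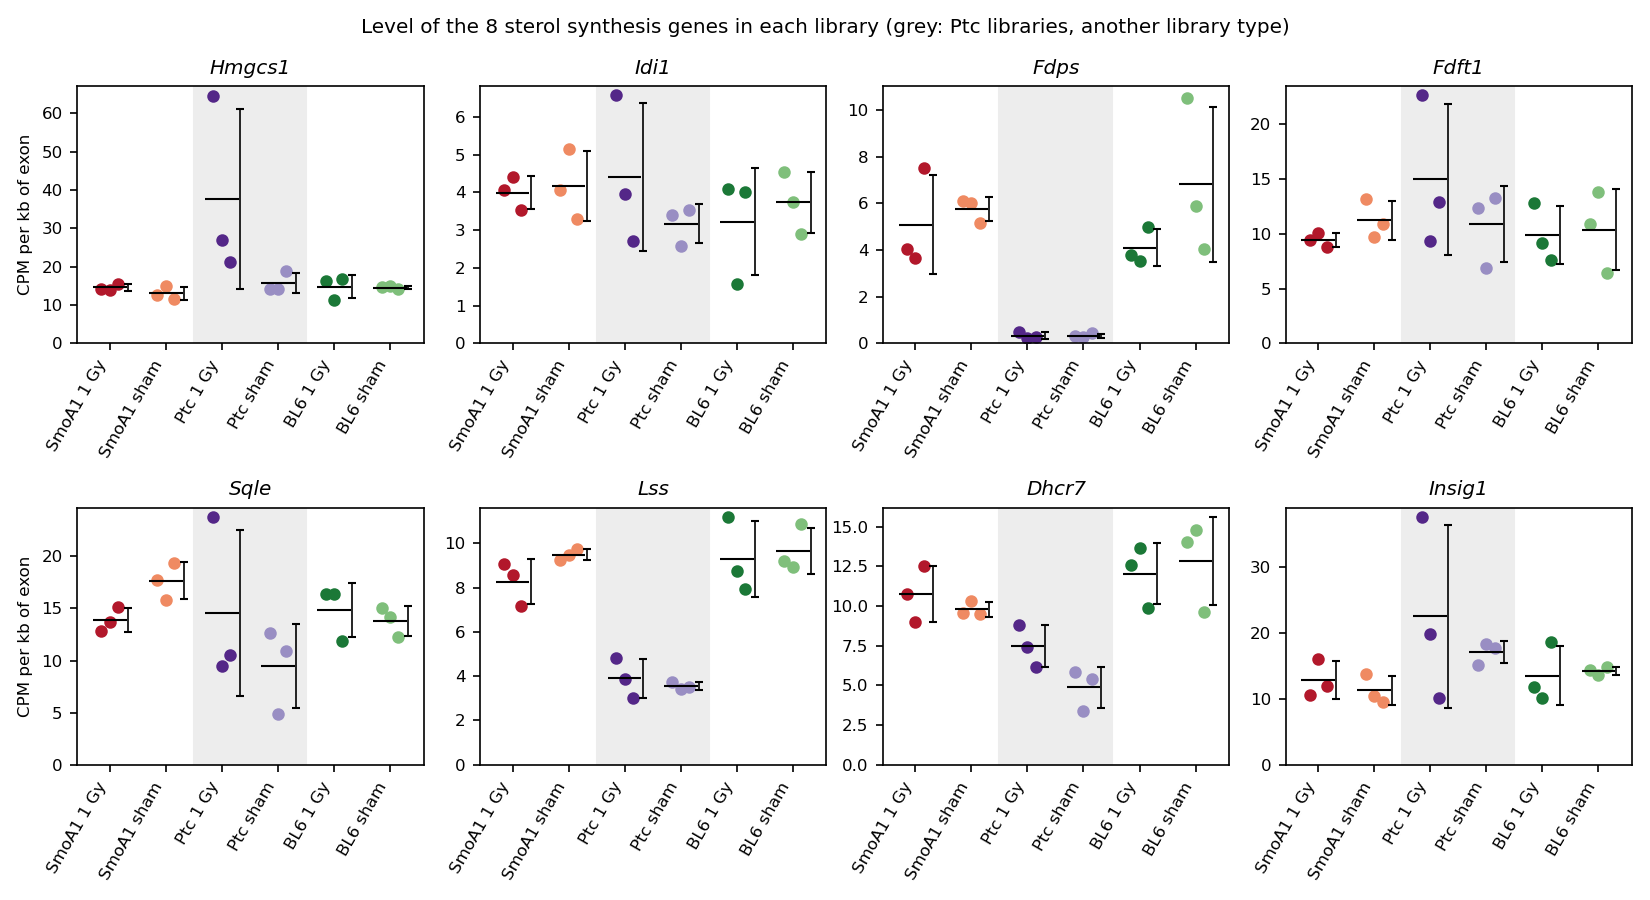
Level of each of the 8 genes in CPM per kb of exon, with 1 point per library in replicate order, a black bar at the mean and an error bar of 1 SD (n = 3). Grey shading marks the Ptc libraries, which are of another kind, and in every panel Ptc 1 Gy replicate 1 is the highest Ptc point, at 64.5 CPM per kb for Hmgcs1.

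Whether SmoA1 tumours differ from normal cerebellum in sterol synthesis was asked first without radiation, by SmoA1 sham over BL6 sham. Sqle, the squalene epoxidase that adds oxygen to squalene and is a control point of the pathway, was at 98.4, 87.7 and 108 CPM in SmoA1 sham libraries, against 83.3, 78.8 and 67.9 CPM in BL6 sham libraries. The groups did not overlap, and each SmoA1 sham library was above each BL6 sham library. The fitted fold was 1.28, a log2 fold change of 0.36 ± 0.16 (SE), which did not pass the test (p = 0.0358, adjusted p = 0.145, edgeR quasi-likelihood test with Benjamini-Hochberg adjustment over 16428 genes).

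Dhcr7, which carries out the last reduction that yields cholesterol, leaned the other way. It was at 55.6, 60.1 and 55.1 CPM in SmoA1 sham libraries, against 81.5, 86.1 and 56.0 CPM in BL6 sham libraries. The groups overlapped through BL6 sham replicate 3, and the log2 fold change was -0.39 ± 0.19 (edgeR adjusted p = 0.192). Lss, the cyclase that closes oxidosqualene into lanosterol, averaged 102.3 ± 2.59 CPM in SmoA1 sham and 104.2 ± 11.3 CPM in BL6 sham libraries (SD, n = 3 each).

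Among the genes before squalene, Hmgcs1, which makes HMG-CoA, averaged 59.8 ± 8.09 CPM in SmoA1 sham and 66.8 ± 2.06 CPM in BL6 sham libraries. Fdft1, the squalene synthase, averaged 47.5 ± 7.48 CPM in SmoA1 sham and 43.9 ± 15.7 CPM in BL6 sham libraries. Fdps, which makes farnesyl diphosphate, averaged 24.2 ± 2.14 CPM in SmoA1 sham and 28.7 ± 14.1 CPM in BL6 sham libraries. Their log2 fold changes of -0.15, 0.09 and -0.22 were each smaller than or close to their SE. Idi1, the isomerase that makes dimethylallyl diphosphate, had too few counts for the test.

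Insig1 was at 42.8, 32.5 and 29.5 CPM in SmoA1 sham libraries, against 44.3, 42.3 and 45.9 CPM in BL6 sham libraries. The groups overlapped, and the log2 fold change was -0.34 ± 0.23 (edgeR adjusted p = 0.379).

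Of the 8 genes, 7 were tested in SmoA1 sham over BL6 sham and 0 were called, where 16.5% of all genes tested were called. At an unadjusted p under 0.05, edgeR gave 1 of the 7, a threshold that at least the 16.5% of all genes called also met. For such unadjusted counts, here and below, the share of all genes is not given. DESeq2 called 0 of the 7. In TMM-scaled CPM, the scale on which overlap was judged throughout, 1 gene, Sqle, had groups without overlap and was higher in SmoA1 sham, beside 15.2% of all genes tested. The median log2 fold change of the 7 genes was -0.15, beside 0.01 over all genes tested. Every one of the 7 had a 95% interval inside a 2-fold change in either direction, with bounds from 0.535-fold to 1.61-fold. Such intervals, here and below, are of the fold in counts.

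The same comparison moved markers of several cell types. All 6 markers of dividing cells and all 7 of granule neuron progenitors rose, with sums of 764 to 894 CPM in SmoA1 sham against 128 to 195 CPM in BL6 sham libraries for dividing cells. Of the 11 oligodendrocyte markers 5 fell and 1 rose, with sums of 399 to 480 CPM in SmoA1 sham against 645 to 669 CPM in BL6 sham libraries. Of 8 mature granule neuron markers 6 fell, and of 5 Purkinje markers tested 4 fell. Some of these marker calls did not hold, as for Mbp, Ermn, Barhl1 and Mycn, each lost under DESeq2 and without at least 1 single library. The part of these shifts in the values of Sqle and Dhcr7 was not tested.

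The same question was asked after radiation by SmoA1 1 Gy over BL6 1 Gy. Sqle was at 71.0, 75.9 and 84.0 CPM in SmoA1 1 Gy libraries, against 90.6, 90.6 and 65.9 CPM in BL6 1 Gy libraries. The groups overlapped, and the log2 fold change was -0.07 ± 0.18. Dhcr7 averaged 62.6 ± 10.4 CPM in SmoA1 1 Gy and 70.1 ± 11.3 CPM in BL6 1 Gy libraries, and Insig1 averaged 39.9 ± 8.89 CPM in SmoA1 1 Gy and 41.8 ± 13.8 CPM in BL6 1 Gy libraries (SD, n = 3 each).

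All 8 genes were tested in SmoA1 1 Gy over BL6 1 Gy, and 0 were called by edgeR or by DESeq2, with 0 at an unadjusted p under 0.05. Of all genes tested, 6.92% were called. No sterol gene had groups without overlap, beside 21.9% of all genes tested. The log2 fold changes ran from -0.15 for Lss to 0.29 for Fdps, with a median of -0.05 beside -0.0089 over all genes, and the smallest adjusted p was 0.741. For 6 of the 8 the 95% interval lay inside a 2-fold change, and those of Idi1 and Fdps reached 2.31-fold and 2.09-fold.

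The effect of 1 Gy within SmoA1 tumours was asked by SmoA1 1 Gy over SmoA1 sham. Sqle was at 71.0, 75.9 and 84.0 CPM in SmoA1 1 Gy libraries, against 98.4, 87.7 and 108 CPM in SmoA1 sham libraries. Each SmoA1 1 Gy library was below each SmoA1 sham library, and the fitted fold was 0.794. The log2 fold change of -0.33 ± 0.16 did not pass the test (p = 0.0457, adjusted p = 0.341, edgeR).

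Lss was at 98.0, 92.5 and 77.1 CPM in SmoA1 1 Gy libraries, against 99.8, 102 and 105 CPM in SmoA1 sham libraries. These groups did not overlap either, with a log2 fold change of -0.19 ± 0.15 (edgeR adjusted p = 0.637). Fdft1 averaged 39.9 ± 2.76 CPM in SmoA1 1 Gy and 47.5 ± 7.48 CPM in SmoA1 sham libraries, with a log2 fold change of -0.23. Hmgcs1, Dhcr7 and Insig1 had log2 fold changes above 0, at 0.17, 0.14 and 0.23, each with an SE of similar size or larger.

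In SmoA1 1 Gy over SmoA1 sham 0 of the 8 genes were called by edgeR or by DESeq2, where 2.17% of all genes tested were called, and 1 (Sqle) had an unadjusted p under 0.05. The groups did not overlap and were lower in SmoA1 1 Gy for 2 genes, Sqle and Lss, beside 8.85% of all genes tested. The median log2 fold change was -0.11, beside -0.02 over all genes tested. All 8 intervals lay inside a 2-fold change, between 0.544-fold and 1.70-fold. The values of Sqle in SmoA1 sham libraries enter both comparisons named for it, which share those samples.

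In SmoA1 1 Gy over SmoA1 sham the 11 oligodendrocyte markers summed to 507 to 620 CPM in SmoA1 1 Gy against 399 to 480 CPM in SmoA1 sham libraries, and 1 of them, Opalin, rose. Purkinje markers summed to 361 to 615 CPM in SmoA1 1 Gy against 333 to 348 CPM in SmoA1 sham libraries, and 1 of 5 tested, Calb1, rose. Of 8 mature granule neuron markers Chn2 rose, and of 7 progenitor markers Sox11 fell. The calls of Opalin, Calb1 and Chn2 were each lost under DESeq2 and without SmoA1 1 Gy replicate 1 or 2 or SmoA1 sham replicate 2 or 4. Opalin was also lost without SmoA1 1 Gy replicate 3, and Calb1 and Chn2 without SmoA1 sham replicate 1. The call of Sox11 was lost without SmoA1 1 Gy replicate 1 or 2 or SmoA1 sham replicate 1. None of the markers of the other 5 lists was called by edgeR, with 3 of them at an unadjusted p under 0.05. The part of these shifts in the sterol genes was not tested.

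The effect of 1 Gy within Ptc tumours, Ptc 1 Gy over Ptc sham, gave the largest fitted changes. Hmgcs1 was at 296, 124 and 97.8 CPM in Ptc 1 Gy libraries, against 65.1, 64.7 and 86.2 CPM in Ptc sham libraries. Each Ptc 1 Gy library was above each Ptc sham library, and replicate 1 was far above the rest. The fitted fold was 2.41 (95% interval 1.14 to 5.08), a log2 fold change of 1.27 ± 0.45, which did not pass the test (p = 0.0277, adjusted p = 0.685, edgeR over 19571 genes). Without Ptc 1 Gy replicate 1 the fold of Hmgcs1 was 1.53, with a log2 fold change of 0.61 ± 0.27 (edgeR adjusted p = 0.510). Without both Ptc libraries numbered 2 the fold was 2.69, a log2 fold change of 1.43 (edgeR adjusted p = 0.852).

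Dhcr7 was at 51.4, 43.3 and 35.8 CPM in Ptc 1 Gy libraries, against 34.1, 19.8 and 31.3 CPM in Ptc sham libraries. These groups did not overlap, though 35.8 and 34.1 CPM lie close together. The log2 fold change was 0.63 ± 0.27 (edgeR p = 0.0576, adjusted p = 0.686), and without Ptc 1 Gy replicate 1 it was 0.47 ± 0.32. Leaving out Ptc sham replicate 2, the library that stood apart by its markers, gave 0.46 ± 0.26.

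Sqle was at 132, 52.3 and 58.4 CPM in Ptc 1 Gy libraries, against 70.0, 27.2 and 60.4 CPM in Ptc sham libraries. The groups overlapped, because replicate 1 alone was above all sham libraries and sham replicate 2 alone was below all others. The log2 fold change was 0.64 ± 0.47, against 0.07 ± 0.40 without Ptc 1 Gy replicate 1 and 0.35 ± 0.46 without Ptc sham replicate 2.

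Insig1 was at 116, 61.5 and 31.4 CPM in Ptc 1 Gy libraries, against 46.9, 56.5 and 54.8 CPM in Ptc sham libraries. Its lowest and highest values were both in the 1 Gy group. The log2 fold change of 0.40 ± 0.48 was -0.19 ± 0.39 without replicate 1 of that group.

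Fdft1 was at 95.9, 39.3 and 54.6 CPM in Ptc 1 Gy libraries, against 52.3, 29.2 and 56.2 CPM in Ptc sham libraries. Idi1 was at 23.0, 13.9 and 9.52 CPM in Ptc 1 Gy libraries, against 11.9, 9.02 and 12.4 CPM in Ptc sham libraries. Both sets overlapped, with log2 fold changes of 0.47 and 0.49 that were 0.0081 and 0.07 without Ptc 1 Gy replicate 1. Lss averaged 42.1 ± 9.60 CPM in Ptc 1 Gy and 38.4 ± 1.94 CPM in Ptc sham libraries, and Fdps averaged 1.39 ± 0.575 CPM in Ptc 1 Gy and 1.37 ± 0.357 CPM in Ptc sham libraries (SD, n = 3 each).

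In Ptc 1 Gy over Ptc sham 0 of the 8 genes were called, as were 0% of all 19571 genes tested by edgeR. Hmgcs1 alone of the 8 had an unadjusted p under 0.05 by edgeR. DESeq2 called 0 of the 8 and 318 genes in all, with an adjusted p of 0.228 for Hmgcs1. The groups did not overlap and were higher in Ptc 1 Gy for 2 genes, Hmgcs1 and Dhcr7, beside 7.06% of all genes tested. The median log2 fold change of the 8 genes was 0.48, beside -0.00047 over all genes tested. Without Ptc 1 Gy replicate 1 the median was 0.04 and 5 of the 8 were above 0, with Fdps at -0.39, Insig1 at -0.19 and Lss at -0.06. Without Ptc 1 Gy replicate 3 the median was 0.77. Without Ptc sham replicate 2 the median was 0.38 and 7 of the 8 were above 0. The intervals were wide, and only that of Lss lay inside a 2-fold change, so changes of that size could not be resolved for the other 7. Only with all 18 libraries in 1 fit, in which the closer SmoA1 and BL6 replicates set part of the spread, was Hmgcs1 called, at a log2 fold change of 1.27 and an adjusted p of 0.0248.

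**Figure D3:**
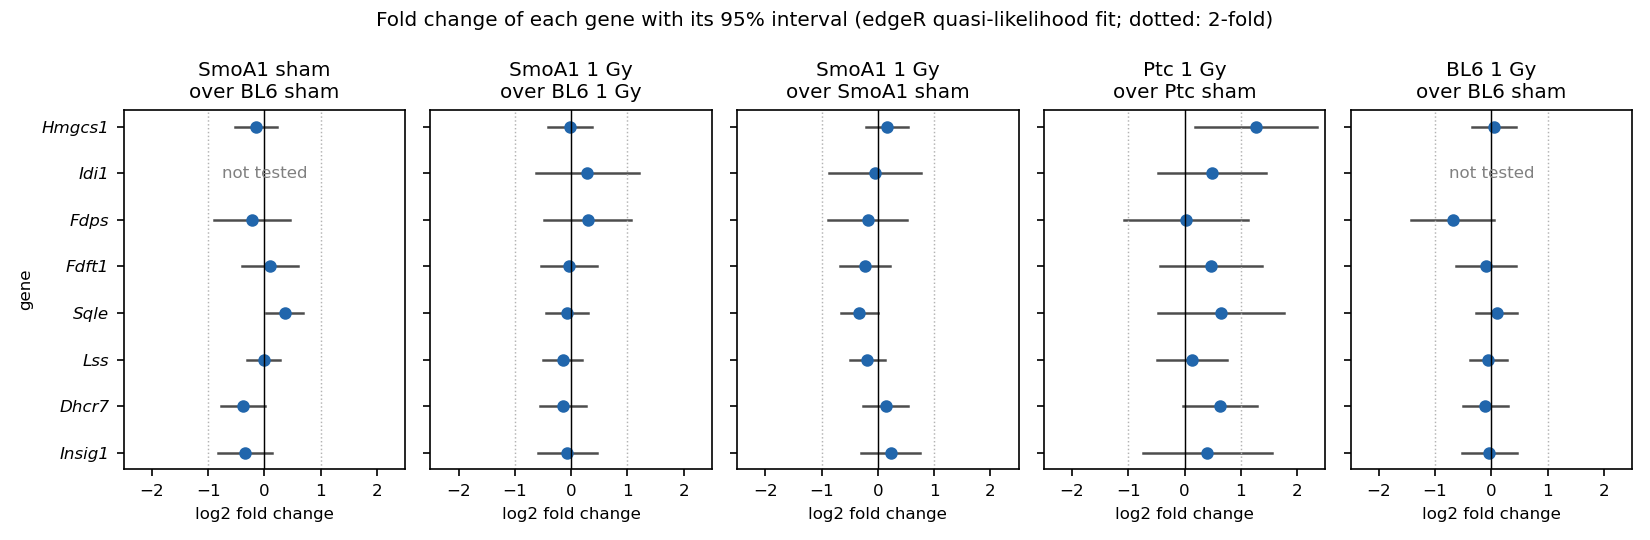
Log2 fold change of each of the 8 genes (points) with its 95% interval (lines, not adjusted for the number of genes) in the 5 comparisons of groups, from the edgeR fit. Dotted lines mark a 2-fold change in either direction. The Ptc intervals are the widest, with Hmgcs1 at 1.27, and Idi1 was not tested where its counts were too low.

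Ptc 1 Gy replicate 1 held the highest value of the 6 Ptc libraries for 8 of the 8 sterol genes, beside 12.4% of all 19571 genes. The 8 genes were chosen with earlier results of these data known, so this share is a description. Relative levels in Ptc 1 Gy replicate 1 follow. Relative to the median of the other 5 Ptc libraries the value in Ptc 1 Gy replicate 1 was 3.44 times as high for Hmgcs1, 2.26 for Sqle, 2.12 for Insig1, 1.93 for Idi1, 1.83 for Fdft1, 1.74 for Fdps, 1.51 for Dhcr7 and 1.37 for Lss. The median of these ratios was 1.88, beside 1.00 over all genes tested. The ratios of the 8 genes and of the other lists below are in CPM, and that over all genes is in TMM-scaled CPM. The 8 genes together summed to 768.5 CPM in that library, against 244 to 377 CPM in the other 5.

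Other genes of the pathway shared this in part. Of the other enzymes of sterol synthesis, 9 of 15 tested were highest in Ptc 1 Gy replicate 1, with a median ratio of 1.43. Msmo1, a sterol methyl oxidase, was at 72.3 CPM there, against 18.4 to 54.6 CPM in the other 5 Ptc libraries.

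Of the 11 genes of SREBP processing and sterol sensing, the median ratio was 1.07 and Srebf2 alone, which encodes SREBP2, was highest there, at 297 CPM against 112 to 173 CPM. Of the 12 genes of sterol uptake and transport 4 were highest there, with a median ratio of 0.952. Among them was Stard4, a sterol carrier, at 126 CPM against 64.4 to 78.5 CPM.

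Genes of sterol efflux and fatty acid synthesis did not share it. None of 11 tested genes of sterol efflux, storage and oxysterols was highest in Ptc 1 Gy replicate 1 (median ratio 0.744), nor was any of 11 SREBP1 targets of fatty acid synthesis (0.9302) or of 15 Hedgehog pathway genes (0.674). Scd1, a fatty acid desaturase, was at 4.29 CPM there, against 10.03 to 124 CPM in the other 5 Ptc libraries.

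By its markers Ptc 1 Gy replicate 1 was lowest of the 6 Ptc libraries for oligodendrocytes, at 174 CPM against 363 to 3501 CPM, and for astrocytes and Bergmann glia, at 701 CPM against 1017 to 4526 CPM. Its mature granule neuron markers summed to 4338 CPM, against 291 to 5648 CPM in the other 5. In Ptc 1 Gy over Ptc sham the median log2 fold change was -4.21 for Purkinje, -1.50 for oligodendrocyte and -1.13 for mature granule neuron markers. It was 1.70 for endothelial and 1.17 for microglia markers, and no marker was called by edgeR. Ptc 1 Gy replicate 2 was highest for all 6 microglia and all 5 endothelial markers and had the lowest mature granule neuron sum, 291 CPM. The part of these differences in cell type markers in the sterol gene values was not tested.

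**Figure D4:**
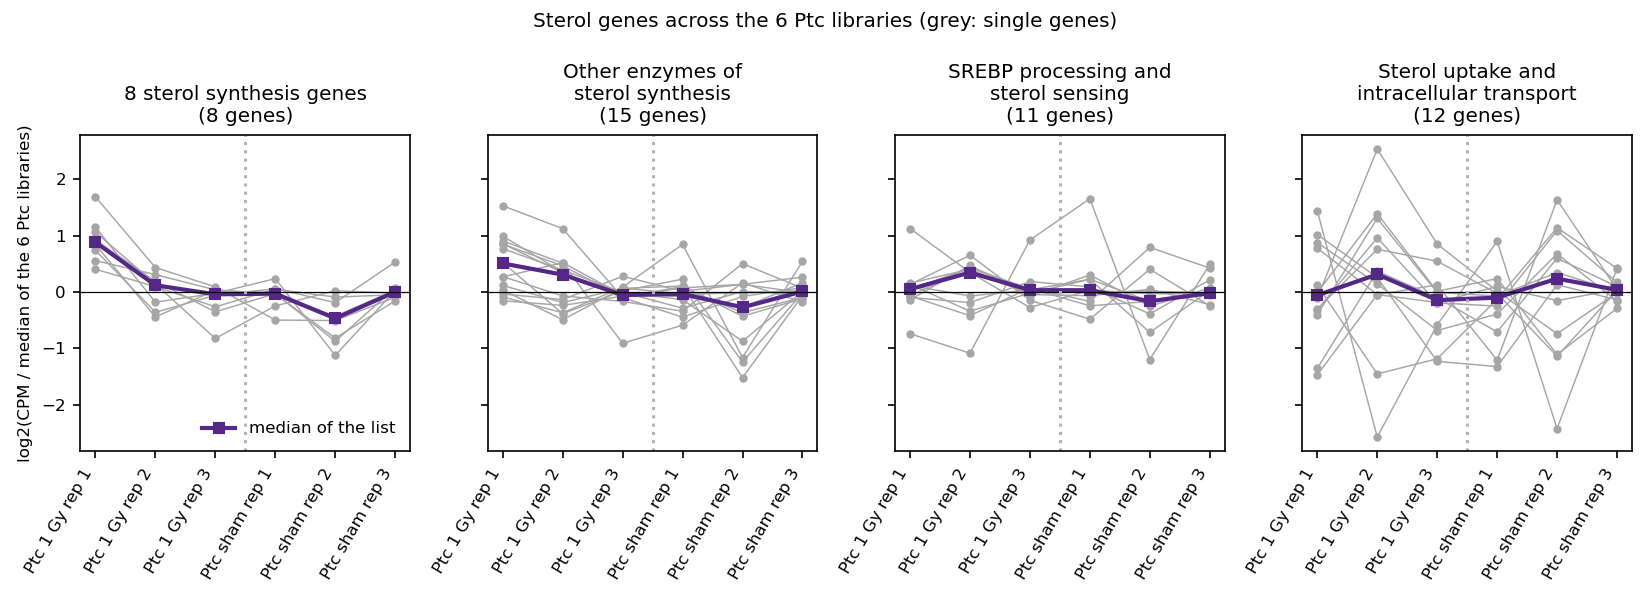
Log2 of CPM over the median of the 6 Ptc libraries for the 8 sterol genes and 3 other lists (grey lines, 1 per gene), with the list median in purple. In the first panel all 8 genes peak in Ptc 1 Gy replicate 1, where Hmgcs1 is at 296 CPM, while the genes of SREBP processing and of uptake show no common peak there.

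In normal cerebellum, BL6 1 Gy over BL6 sham, the levels after 1 Gy were close to those after sham for all but Fdps. Hmgcs1 averaged 67.9 ± 14.0 CPM in BL6 1 Gy and 66.8 ± 2.06 CPM in BL6 sham libraries, and Sqle averaged 82.4 ± 14.3 CPM in BL6 1 Gy and 76.7 ± 7.88 CPM in BL6 sham libraries (SD, n = 3 each). Fdps was at 15.9, 14.8 and 21.0 CPM in BL6 1 Gy libraries, against 44.3, 24.8 and 17.0 CPM in BL6 sham libraries. Its groups overlapped, and the log2 fold change was -0.69 ± 0.36 (p = 0.0644, adjusted p = 0.998, edgeR), on 8 to 25 counts per library.

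In BL6 1 Gy over BL6 sham 7 of the 8 genes were tested and 0 were called by edgeR or by DESeq2, beside 0.0126% of all genes tested, and none had an unadjusted p under 0.05. No sterol gene had groups without overlap, beside 9.49% of all genes tested. Apart from Fdps the log2 fold changes ran from -0.11 for Dhcr7 to 0.09 for Sqle. For 6 of the 7 genes the interval lay inside a 2-fold change.

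The change after 1 Gy was then compared between models. For SmoA1 minus BL6, Sqle had the smallest p, with a log2 difference of -0.42 ± 0.24 (p = 0.0884, adjusted p = 0.537, edgeR interaction term). Of the 8 genes 0 were called by edgeR or by DESeq2 and 0 had an unadjusted p under 0.05, beside 1.06% of all genes called. The median difference was 0.13, beside 0.02 over all genes tested.

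For Ptc minus SmoA1 the difference was above 0 for all 8 genes, with a median of 0.67, beside 0.19 over all genes tested. It was 1.26 ± 0.51 for Hmgcs1 (p = 0.0279, adjusted p = 0.572, edgeR interaction term) and 1.13 ± 0.54 for Sqle (adjusted p = 0.616). Of the 8 genes 0 were called by edgeR or by DESeq2, beside 0.00365% of all genes called, and 1 had an unadjusted p under 0.05. No interval lay inside a 2-fold difference, and this comparison also crosses the 2 kinds of library.

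Other genes around the pathway were called in SmoA1 tumours against BL6 cerebellum. Of all genes tested, 16.5% were called in SmoA1 sham over BL6 sham and 6.92% in SmoA1 1 Gy over BL6 1 Gy. A single call in any list below does not exceed the first of these shares. Of 15 tested other enzymes of sterol synthesis, 0 were called by edgeR in any of the 7 comparisons. In SmoA1 sham over BL6 sham the smallest adjusted p was 0.124, for Mvd, the mevalonate diphosphate decarboxylase (log2 fold change 0.57).

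Of 12 genes of uptake and transport, Npc1l1, a sterol transporter of the gut, fell in SmoA1 sham over BL6 sham. Npc1l1 averaged 20.5 ± 3.198 CPM in SmoA1 sham and 59.7 ± 1.43 CPM in BL6 sham libraries (log2 fold change -1.54, edgeR adjusted p = 4.19e-05). Npc1l1 also fell in SmoA1 1 Gy over BL6 1 Gy (-0.99, edgeR adjusted p = 0.0112, but 0.116 without BL6 1 Gy replicate 3). In the deeper Ptc libraries Npc1l1 was at 0.301 CPM in Ptc 1 Gy replicate 1 and at 0.36 to 2.59 CPM in the other 5. Whether its counts in SmoA1 and BL6 libraries come from Npc1l1 RNA was not tested.

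Of 11 genes of SREBP processing, Mbtps2, the protease that makes the second cut in SREBP, rose in SmoA1 sham over BL6 sham (0.54, edgeR adjusted p = 0.0142, but 0.0636 without BL6 sham replicate 1 and 0.0797 by DESeq2). Of 10 tested genes of efflux, Abcg4, a sterol exporter, fell in SmoA1 sham over BL6 sham (-0.53, edgeR adjusted p = 0.0404), a call lost without any 1 of 5 libraries (SmoA1 sham replicates 2 and 4, and BL6 sham replicates 1, 2 and 3) and with a replicate block (-0.36, adjusted p = 0.389). Abca1, the exporter that loads cholesterol onto apolipoproteins, rose in SmoA1 1 Gy over BL6 1 Gy (0.68, edgeR adjusted p = 0.00319).

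Of 11 targets of SREBP1 in fatty acid synthesis, Scd1 fell (-0.90, edgeR adjusted p = 0.00192) while Fasn, the fatty acid synthase, and Scd2 rose (0.40 and 0.51, edgeR adjusted p = 0.0390 and 0.0418) in SmoA1 sham over BL6 sham. The calls of Fasn and Scd2 were each lost without any 1 of 3 libraries (SmoA1 sham replicate 1 and BL6 sham replicates 1 and 3 for Fasn, SmoA1 sham replicate 4 and BL6 sham replicates 2 and 3 for Scd2) and under DESeq2. With a replicate block the log2 fold change of Scd2 was 0.23 (adjusted p = 0.614). Scd1 is also made by oligodendrocytes, of whose 11 markers 5 fell and 1 rose in this comparison. The part of that shift in the values of Scd1 and Scd2 was not tested.

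Of the 15 Hedgehog pathway genes, Smo, Gli1 and Sufu were among those that rose in SmoA1 sham over BL6 sham, and Disp2 fell. Smo rose by 1.06 and Gli1, the transcription factor and target of the pathway, by 0.79 on the log2 scale (edgeR adjusted p = 0.000161 and 0.00411), and Sufu rose by 0.51. The log2 fold change of Disp2 was -0.42. The call of Sufu was lost without SmoA1 sham replicate 1 or BL6 sham replicate 1 or 2, and that of Disp2 without SmoA1 sham replicate 1 or 2 or any BL6 sham library. That of Gli1 was lost with a replicate block (adjusted p = 0.107), and Ptch1 was not called (0.14, edgeR adjusted p = 0.506). Smo alone of the 15 rose in SmoA1 1 Gy over BL6 1 Gy (1.08, edgeR adjusted p = 0.000771).

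Genes whose pattern was most like that of the 8 sterol genes were ranked by Pearson's r with the mean of the 8 standardised log2 CPM values. Over the 6 Ptc libraries the highest r among 14996 protein-coding genes outside the lists were those of Chchd6 (0.99), Cemip2, Nr1i2, Ephb3 and Ccdc154 (0.97 each). Among the 75 genes of the other pathway lists, a ranking chosen after values were seen, Stard4 (0.94), Nsdhl (0.93), Srebf2 (0.91) and Cyp51 (0.85) were among the highest. Over the 12 SmoA1 and BL6 libraries the highest r were lower, at 0.83 for Card10, 0.82 for Rps3, 0.78 for Kmt5b and 0.77 for both Mamld1 and Gm14443. With 6 or 12 points that share library depth, and in Ptc libraries with 1 library far from the rest, these values are descriptions.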

How the data were processed

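The authors deposited counts of reads per gene for 54 files, each with an unstranded column and one per strand, laid out like STAR gene counts. The aligner, the counter and their settings are not given in the sources used here, and mm10 and Cell Ranger 5.0.1 are named in the submitters' processing notes without a role. RNA was total RNA depleted of ribosomal RNA, per the labels' protocols. The column without strand was used. Reads outside genes, given as ranges in the report, stayed out of library sizes and tests.

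The 4 files of each numbered SmoA1 or BL6 sample differed by less than sampling noise (variance over mean 0.857 to 0.938, over genes with at least 40 counts), so they were added and counted as 1 sample, which gave 12 such libraries beside 6 Ptc libraries. Per-strand columns of the SmoA1 and BL6 files followed the chromosome strand of the gene (99.1% to 99.6% of counts), so a gene and its antisense partner cannot be told apart there.

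Each comparison was fitted with edgeR 4.0.16 (R 4.3.3; filterByExpr, TMM scaling, quasi-likelihood test) on the libraries of its own groups, with the 2 differences between models as interaction terms. Benjamini-Hochberg adjustment ran over all genes tested and calls were made at 0.05. Fits were tested on simulated data. Levels are CPM, divided by merged exon length from GENCODE vM21 (GRCm38) where given per kb. Promoters came from RefSeq. Alternatives used RLE and upper-quartile scaling, DESeq2 1.42.0, no low-count filter, 1 strand column, a replicate block, all 18 libraries in 1 fit, each library left out, TMM levels within library kind and loess offsets along abundance (limma 3.58.1). Tables and figures used Python 3.11.15, pandas 2.3.3, SciPy 1.17.1 and matplotlib 3.10.9.

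The members and all gene lists were chosen with earlier results of these data known. The text names the 8 genes, from each other list the called genes (up to 4 per direction by smallest p) or some with the smallest p, Ptch1, Smo and Gli1, and the 5 genes with the most similar pattern in each library kind. Counts limit precision most for Idi1 and Fdps in SmoA1 and BL6 libraries. Some genes of the other lists are not reported here.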

Additional observations from a re-analysis of the deposited data

Results flagged for a closer look

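The change after 1 Gy differed between SmoA1 tumours and BL6 cerebellum, by the edgeR interaction test, for 3 of the cell type markers. For Chn2, a mature granule neuron marker, the log2 difference SmoA1 minus BL6 was 1.41 (adjusted p = 0.0154), from a change of 0.91 in SmoA1 and -0.49 in BL6, and the call was lost without SmoA1 1 Gy replicate 1 or 2, BL6 1 Gy replicate 4 or BL6 sham replicate 1. For Mki67, a marker of dividing cells, it was -1.19 (adjusted p = 0.0374), from -0.31 in SmoA1 and 0.89 in BL6, and the call held without SmoA1 1 Gy replicate 3, SmoA1 sham replicate 2 or BL6 1 Gy replicate 3 and was lost without any 1 of the other 9 libraries. For Mcm2, a replication helicase subunit, it was -1.10 (adjusted p = 0.0438), from -0.67 in SmoA1 and 0.44 in BL6, and the call held without SmoA1 1 Gy replicate 3 or SmoA1 sham replicate 1 and was lost without any 1 of the other 10. With a replicate block all 3 calls were lost (edgeR adjusted p = 0.0552 for Chn2, 0.236 for Mki67 and 0.105 for Mcm2). That of Mcm2 was also lost under DESeq2 (adjusted p = 0.0946) and with upper-quartile scaling (edgeR adjusted p = 0.0520). None of the 8 sterol genes was called by the interaction test.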

How the results depend on the processing

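The count of sterol genes called was 0 in all 7 comparisons and stayed 0 under every alternative run except 1. With all 18 libraries in 1 fit, 1 gene was called in Ptc 1 Gy over Ptc sham, Hmgcs1 (adjusted p = 0.0248), and that fit called 1152 genes there and 17 in SmoA1 sham over BL6 sham. Of 811 alternative values of the sterol genes 56 changed sign, and 28 of 54 pairs of gene and comparison kept their sign throughout. Leaving out 1 library moved the log2 fold change of Hmgcs1 in Ptc between 0.61 and 1.58. The titles do not say whether equal replicate numbers mark a pairing. Deviations from the group mean had correlations of -0.04 to 0.19 between same-numbered libraries and -0.19 to 0.14 between differently numbered ones. With 3 libraries per group these values cannot decide whether a pairing exists. With a replicate block 0 sterol genes were called, Hmgcs1 in Ptc was at 1.08 (adjusted p = 0.827), and the genes called in all went to 1960, 1256, 551, 0, 7, 70 and 0 in the 7 comparisons, in the order of the report, against 2705, 1175, 363, 0, 2, 193 and 1 without it. DESeq2 called 1727, 702, 225, 318, 1, 101 and 110 genes in the same order, no low-count filter gave 4422, 2235, 969, 1, 16, 449 and 7, and the single strand column gave 1447, 612, 174, 0, 0, 79 and 0. In the SmoA1 and BL6 libraries that column held 0.444% to 0.627% of the counts of minus-strand genes, which thus had almost no counts to test. Fdps and Fdft1, both on the minus strand, had 1 and 4 counts in it over these 12 libraries, and so no usable values. Their values from that column for Ptc minus SmoA1 are nonetheless among the 811. Leaving out both Ptc libraries numbered 2 was chosen after seeing the data. The cause of the differences under the other alternatives was not tested.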
